A study of Homo sapiens with 20 samples.

Results

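The 13 mitochondrial tRNAs described here lie in the heavy-strand transcript, and they are all of its tRNAs other than tRNA-Leu(UUR). Their genes were chosen by position, not by any measured value. They are TRNF (tRNA-Phe), TRNV (tRNA-Val), TRNI (tRNA-Ile), TRNM (tRNA-Met), TRNW (tRNA-Trp), TRND (tRNA-Asp), TRNK (tRNA-Lys), TRNG (tRNA-Gly), TRNR (tRNA-Arg), TRNH (tRNA-His), TRNS2 (tRNA-Ser(AGY)), TRNL2 (tRNA-Leu(CUN)) and TRNT (tRNA-Thr). They make up 13 of 37 mitochondrial genes, 13 of 22 tRNA genes and 881 of the 16570 listed positions, and none of these positions was left out. The last 3 positions of TRNI also belong to TRNQ, which is read from the opposite strand.

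The RNA came from fractionated mitochondria of K562, a human chronic myelogenous leukaemia cell line, and was treated with 0.5 M CMC, a carbodiimide whose adduct stays on pseudouridine and disturbs reverse transcription there. Profiles of 14 CMC libraries were compared: 4 control libraries from wild-type cells with a non-targeting guide, 4 from cells labelled NME6 KO (knockout), 3 from cells labelled RPUSD4 knockdown and 3 from NME6 KO cells that also carry WT-NME6 cDNA (rescue). RPUSD4 is a mitochondrial pseudouridine synthase, and NME6 is a mitochondrial protein of the nucleoside diphosphate kinase family. All groups share the K562 background and the CMC dose, and the labels do not say how many clones stand behind a group, or how RPUSD4 was lowered.

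Mitochondrial tRNA genes sit between the rRNA and protein-coding genes of long transcripts, and their excision by nucleases at either end releases the neighbouring RNAs. Each carries its amino acid to the mitochondrial ribosome. Pseudouridine, an isomer of uridine, is set into tRNAs by several synthases and is known to stabilise their stems and loops.

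The value at a position, called its level, is the deposited difference between the CMC and the untreated profile. The values are taken to be percentage points of altered reads, a unit that the numbers themselves had to supply. Gene coordinates are those of GRCh38, and a base number counts from the first base of the gene. The listed positions run from 2 to 16571 and were taken to use the same numbering. That was not checked against a sequence, so a base number may be off by some bases. No base sequence was used here, so a position with a level need not be a uridine. Read depth is unknown, and an exact 0 can mean no reads as well as no altered reads. A level also cannot separate less modified RNA from a change in the reads that cover it. Identical values below 0 were shared at up to 23 of these tRNA positions by 17 of 18 pairs of libraries from one group, and by 0 of 73 pairs from different groups. The same untreated profile thus appears to have been subtracted within a group, and its error is not part of the spread between libraries. Separate cultures are not mentioned in the labels, and p-values measure only that spread. The rescue samples seem to be a later registration than the rest, so a batch and the rescue cannot be told apart.

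Replicate 1 of control and replicate 1 of NME6 KO stood apart from their groups. Over the whole mitochondrial genome their mean levels were 0.0851 and 0.0850 points, against 0.156 to 0.166 points in the other 6 libraries of these groups. They listed 58.9% and 68.2% of the genome at 0, against 32.4% to 34.2% in the other control libraries and 42.7% to 53.7% in the other knockout libraries.

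Most of the 13 tRNAs was listed at 0. Of the 12334 values at these positions 68.2% were exactly 0, against 44.4% over the whole mitochondrial genome and 78.0% in the 8 light-strand tRNAs. Of the 881 positions 161 were 0 in all 14 libraries, and 17 differed from 0 in all 14. TRNF, the first gene of the heavy-strand transcript, had 99.5% of its values at 0 and 68 of its 71 positions at 0 in every library. TRNV, between the rRNA genes RNR1 and RNR2, followed with 84.5%. At the other end stood TRNR, between ND3 and ND4L, with 33.3% at 0 and no position that was 0 throughout, then TRNH with 47.7% and TRNI with 51.9%. The 8 other tRNAs had between 57.02% and 78.4% of their values at 0. The shares are given as a description and were not tested.

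The share at 0 differed between libraries within each group. In control libraries it was 90.4%, 47.2%, 50.6% and 52.8% of the 881 positions, in NME6 KO libraries 88.7%, 74.8%, 77.9% and 81.5%, in RPUSD4 knockdown libraries 74.5%, 75.03% and 83.4%, and in rescue libraries 61.98%, 47.3% and 48.8%. Control replicates 2 to 4 lay below every knockout and knockdown library, control replicate 1 lay above all other libraries, and rescue libraries overlapped the control range. The whole genome showed the same order of group means: 39.8% in control, 53.5% in NME6 KO, 52.8% in RPUSD4 knockdown and 29.9% in rescue, against 60.2%, 80.7%, 77.6% and 52.7% in the 13 tRNAs. A share at 0 read per tRNA therefore moves with the library, and the part of read depth in it was not tested. TRNF was at 97.2% or more in every library, and in TRNR control replicate 1 had 72.3% at 0 while the other control libraries had 12.3% to 15.4%.

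**Figure D1:**
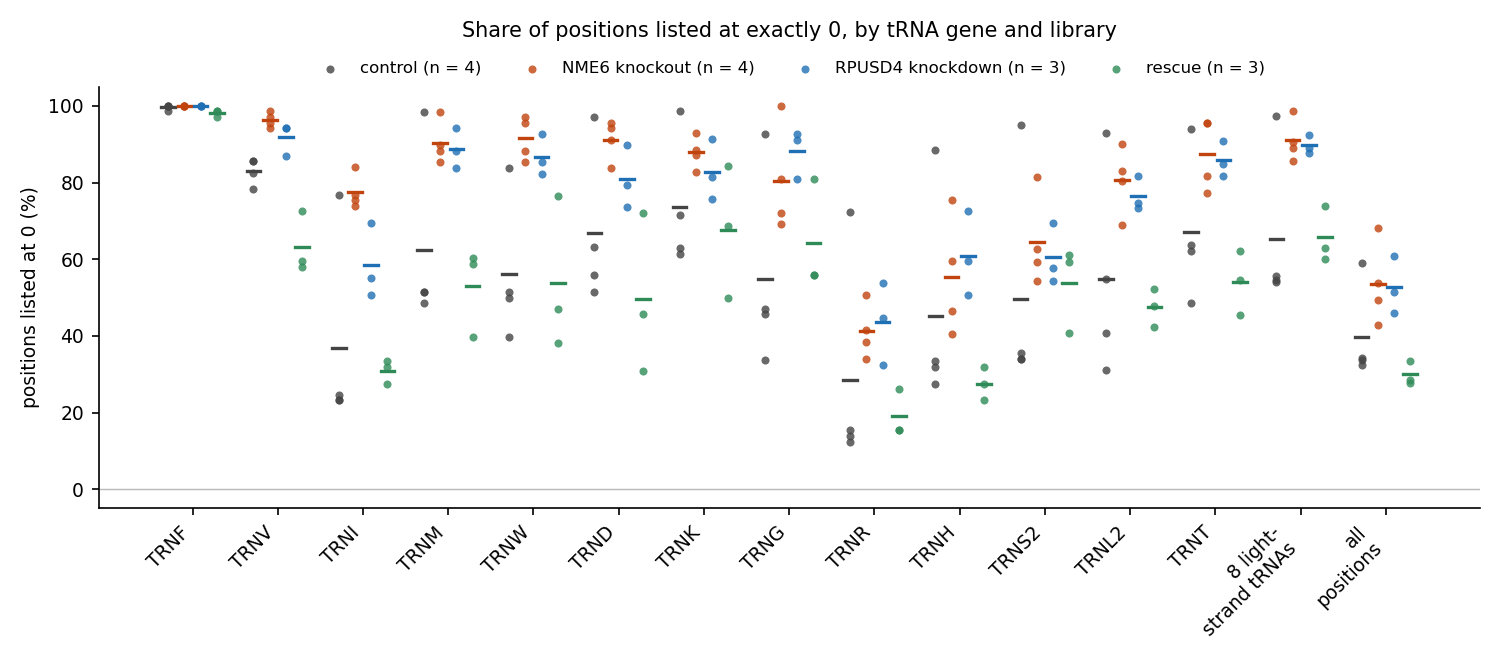
Share of positions listed at exactly 0 (%, y axis) in each of the 13 tRNA genes, in the 8 light-strand tRNAs and over all positions (x axis). Each point is 1 library and each bar a group mean: TRNF stands near 100% in every group, TRNR is lowest, and control replicate 1 (uppermost black point in most genes) lies apart from the other control libraries.

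The level averaged over a whole tRNA was low, at 0.153 points over the 13 tRNAs and all libraries, against 0.134 points over the genome and 0.121 points in the 8 light-strand tRNAs. The 20 bases before these tRNAs had a mean of 0.0916 points and the 20 bases after them 0.101 points, with 69.0% and 72.9% of values at 0. Some of these flanks are themselves tRNA positions, since TRNH, TRNS2 and TRNL2 adjoin each other. TRNR had the highest mean over the 14 libraries, 0.234 points, followed by TRNG with 0.228 and TRND with 0.186 points. TRNT had 0.110 points and TRNF 0.0287 points, and the TRNF mean rests on 1 library. The group means in TRNR were 0.246 ± 0.0924 points in control (SD, n = 4), 0.214 ± 0.0470 in NME6 KO (n = 4), 0.257 ± 0.0323 in RPUSD4 knockdown (n = 3) and 0.223 ± 0.0181 in rescue (n = 3), which differ by less than the control SD. Within the tRNAs, the first 10 bases had a mean of 0.143 points, the last 10 bases 0.160 and the bases between 0.153 points.

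Only 20 of the 881 positions (2.27%) had a mean of 1 point or more over the 14 libraries, the level set for testing, against 0.899% of genome positions. They lie in 10 of the 13 tRNAs: 4 in TRNV, 3 each in TRND and TRNR, 2 each in TRNK, TRNG and TRNH, and 1 each in TRNF, TRNM, TRNW and TRNL2. TRNI, TRNS2 and TRNT had none. The lowest tested position was TRNH 12143 with a mean of 1.02 points, and the highest untested one TRNR 10460 with 0.950 points. A position can pass through 1 high library or group: 11 of the 20 fell under 1 point when 1 of the 4 groups was left out of the mean. A difference of such a position from the group that carried it is set by the filter, so none is given, and the 20 are not a sample of modified sites. Counts and medians over the 20 still include these positions.

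High values were mostly single values in libraries with many zeros. Levels of 5 points or more occurred 34 times at 28 positions, and at 22 of these positions in 1 library only. For 20 of the 34 values every other library of the group was under 1 point. Control replicate 1 held 7 of them, NME6 KO replicates 5, 2, 4 and 5, and RPUSD4 knockdown replicates 0, 2 and 9. The other control libraries and the rescue libraries, which had the fewest zeros, held 0. The highest was TRNF position 588 (base 12), with 33.3 points in control replicate 1, while it was listed at 0 in all of the other 13 libraries.

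TRNV (1602 to 1670) shows the same unevenness over neighbouring bases. Its highest position by mean, 1617 (base 16), read 6.20 and 8.65 points in NME6 KO replicates 2 and 3 and 0 in the other 2 knockout libraries. In the other groups it was 0 in 7 of 10 libraries and reached 1.39 points in rescue replicate 1. Bases 27 to 29 (1628 to 1630) read 10.9, 10.99 and 11.1 points in RPUSD4 knockdown replicate 3, and bases 64 and 65 (1665 and 1666) both read 11.8 points in NME6 KO replicate 4. Neighbouring positions of a library often carried close values: of 2452 pairs with both values other than 0, 1185 (48.3%) lay within 0.1 points, against 57.2% over the genome.

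Some positions were read in every library. Of the 881, 5 had a level above 0 in all 14 libraries: base 24 of TRNR (10428) and bases 5, 6, 14 and 18 of TRNH (12142, 12143, 12151 and 12155). TRNH position 12155, the highest of that tRNA, had 0.518, 1.97, 0.875 and 1.565 points in control, 0.380, 0.816, 1.10 and 1.49 in NME6 KO, 0.483, 3.16 and 1.21 in RPUSD4 knockdown and 1.05, 1.20 and 1.20 in rescue. All groups overlapped there, and no difference passed the test. TRNR base 24 had group means between 0.718 ± 0.0616 points in rescue (SD, n = 3) and 0.929 ± 0.423 in NME6 KO (n = 4), a gap within the spread of the knockout libraries.

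The positions taken for the known tRNA targets of RPUSD4 in this set, in tRNA-Phe and tRNA-Met, could hardly be read. They rest on the unchecked numbering given above, so they may not be the target bases themselves. TRNF position 616 (base 40) was listed at 0 in all 14 libraries. TRNM position 4447 (base 46) was 0 in 10 libraries, all 3 knockdown libraries among them. It read 0.0855 and 0.146 points in control replicates 2 and 4, 0.621 points in rescue replicate 2 and 8.33 points in NME6 KO replicate 1. Neither reached the mean of 1 point, so neither was tested. TRNM's highest position, 4415 (base 14), had 0, 0.680, 1.33 and 1.78 points in control and -0.0696, 0.969 and 5.76 points in the knockdown, ranges that overlap.

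RPUSD4 knockdown was compared with control to ask which positions depend on this synthase. None of the 20 tested tRNA positions passed (limma, Benjamini-Hochberg adjusted over all 149 tested positions of the genome, of which 0.671% passed). An unadjusted p under 0.05 (limma) was found at 13 of the 149 and at 5 of the 20, TRNW 5525 among them. That position passed the level filter through the knockdown, so its p is no support for a difference. At 5 of the 20 the knockdown and control libraries did not overlap, 3 higher and 2 lower, against 6.04% of all 149. The median difference was 0.276 points over the 20 and 0.126 points over the 149. A mean over each whole tRNA gave 0 calls too (limma, Benjamini-Hochberg over the 37 genes, of which 0.0% passed). In the knockdown 5 tRNAs were higher and 8 lower. An unadjusted p under 0.05 was found for 1 of the 13 tRNAs, against 1 of the 37 genes.

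By the numbering used here, bases 4 and 5 of TRNR (10405 to 10469) lie in the acceptor stem. Both were among the non-overlapping positions. Position 10408 had 0.249, 1.997, 2.07 and 2.04 points in control and 3.02, 2.855 and 4.36 points in the knockdown, so all 3 knockdown libraries stood above all control libraries. The difference was 1.82 points (95% interval 0.494 to 3.15, SE 0.606; adjusted p = 0.322 by limma with Benjamini-Hochberg). Position 10409 beside it had 0.249, 2.03, 2.09 and 2.07 points in control and 3.06, 2.99 and 3.86 points in the knockdown, a difference of 1.69 points (SE 0.574, 95% interval 0.435 to 2.95; adjusted p = 0.322 by limma with Benjamini-Hochberg). Without control replicate 1 the differences were 1.38 and 1.24 points, and without knockdown replicate 3 they were 1.35 and 1.41 points.

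TRNK (8295 to 8364) was higher in the knockdown at base 22. Position 8316 had 0, 2.31, 0.341 and 1.597 points in control and 3.06, 3.22 and 8.28 points in the knockdown, again without overlap. The difference was 3.79 points (95% interval 1.02 to 6.56, SE 1.26; adjusted p = 0.322 by limma with Benjamini-Hochberg), and it was 2.08 points without knockdown replicate 3. Base 21 beside it, position 8315, had 1.87, 3.21 and 0.633 points in the knockdown and up to 2.45 points in control, so the groups overlapped there.

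TRND and TRNG held the lower positions. TRND position 7523 (base 6) had 7.89, 1.715, 2.14 and 1.35 points in control and 1.205, 0.297 and 0 points in the knockdown. The difference was -2.77 points (SE 2.04; adjusted p = 0.710 by limma with Benjamini-Hochberg), and without control replicate 1 it was -1.23 points. TRNG position 10048 (base 58), the highest of the 13 tRNAs by mean, had 12.1, 1.87, 3.83 and 4.10 points in control and 0.980, 0 and 0.621 points in the knockdown. That difference was -4.95 points (SE 2.17, 95% interval -9.71 to -0.181; adjusted p = 0.499 by limma with Benjamini-Hochberg), and -2.73 points without control replicate 1. TRNW position 5525 (base 14) overlapped between the groups, with 0.965, 0.316, 0.316 and 0.916 points in control and 0.232, 2.47 and 5.74 in the knockdown. Its mean without the knockdown libraries was 0.579 points, so it passed the level filter through them, and no difference is given.

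**Figure D2:**
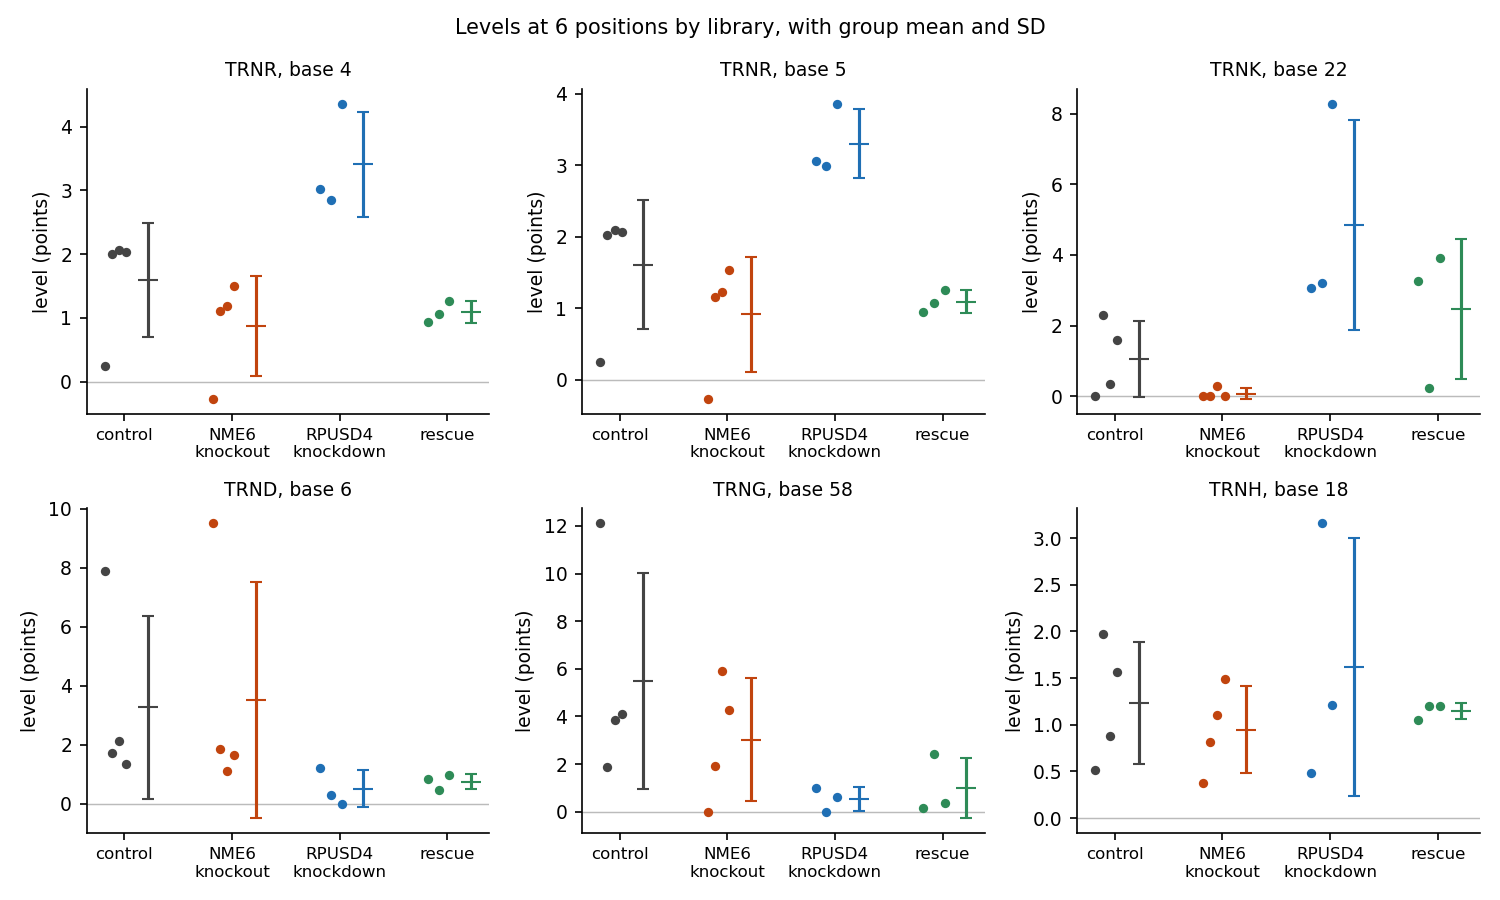
Level (points, CMC minus untreated, y axis) at 6 positions in each library, by group, with the group mean and SD beside the points (4 control, 4 NME6 knockout, 3 RPUSD4 knockdown and 3 rescue libraries; each panel has its own scale). The knockdown libraries stand above all others at TRNR bases 4 and 5, the knockout libraries lie near 0 at TRNK base 22, and 1 control library lies far above the other control libraries at TRND base 6 and TRNG base 58.

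TRNG had the largest difference in mean among the 13 tRNAs. Its mean over 68 positions was 0.477, 0.198, 0.370 and 0.403 points in control and 0.0204, 0.0400 and 0.168 points in the knockdown, without overlap. It was the only one of the 37 gene means that did not overlap in this comparison (2.7%), with a difference of -0.286 points (SE 0.0868, 95% interval -0.472 to -0.1001; adjusted p = 0.192 by limma with Benjamini-Hochberg). The share of its positions at 0 was 92.7%, 45.6%, 33.8% and 47.1% in control and 92.7%, 91.2% and 80.9% in the knockdown. Replicate 1 of both groups had the same share, with means of 0.477 points in control and 0.0204 points in the knockdown. The part of this share in the difference was not tested. Over 23 alternatives the adjusted p ran from 0.0315 to 0.953 (limma, Benjamini-Hochberg), and only 1 passed. That was the fit without NME6 KO replicate 1, which enters through the shared spread.

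**Figure D3:**
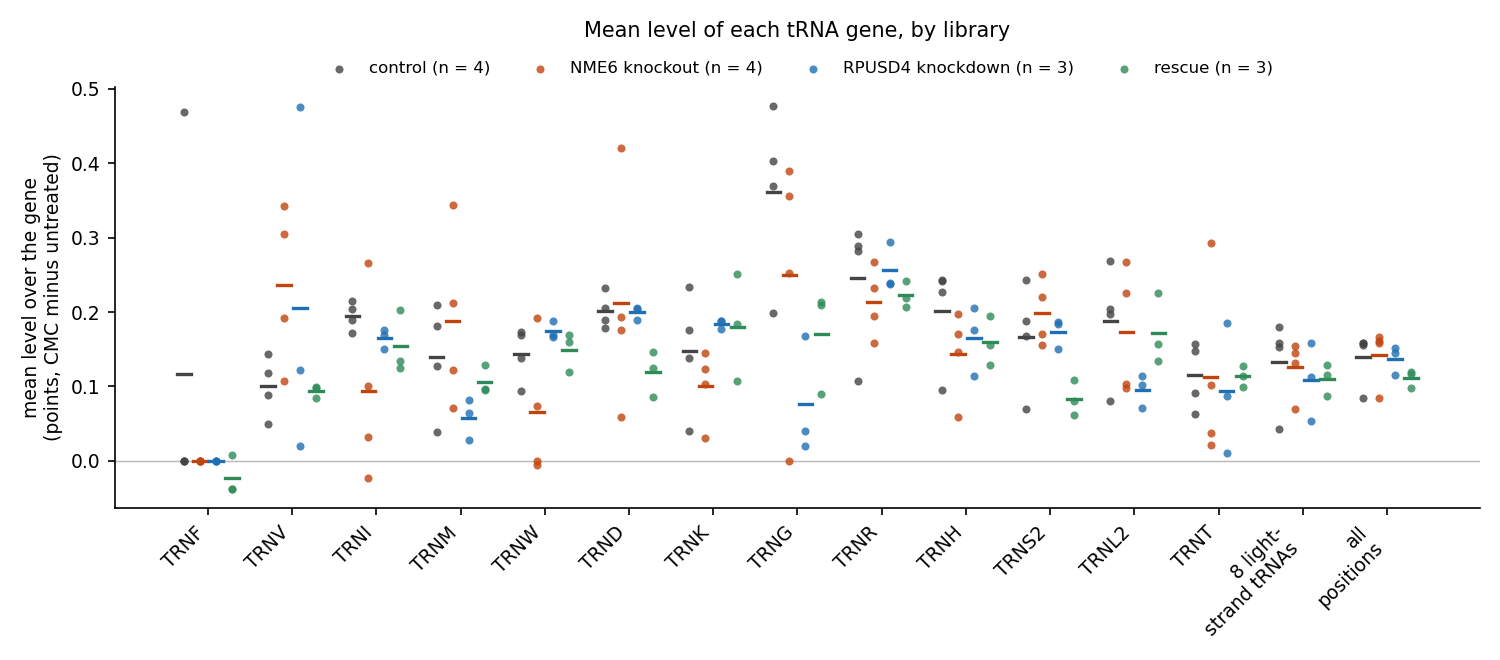
Mean level over each of the 13 tRNA genes (points, CMC minus untreated, y axis), with the 8 light-strand tRNAs and all positions beside them. Each point is 1 library and each bar a group mean (n = 4, 4, 3 and 3): only TRNG separates RPUSD4 knockdown from control. Replicate 1 is the highest control library in TRNF, TRNI, TRND and TRNG and the lowest in all the other tRNAs but TRNV.

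NME6 KO was compared with control to ask whether its loss alters the profile. None of the 20 positions passed (limma, Benjamini-Hochberg, 0.0% of all 149), and 0 of the 20 were free of overlap, against 4.03% of the 149. An unadjusted p under 0.05 (limma) was found at 1 of the 20, against 7 of the 149. The position with that p was TRNV 1616 (base 15), singled out after its values were seen, with 0 in all control libraries and 0, 6.25, 8.65 and 0 points in the knockout. It passed the level filter through the knockout (mean 0.140 points over the other 10 libraries), which sets the direction, so that p is no support for a difference. The 20 differences had a median of -0.104 points, against 0.131 points over the 149. Without replicate 1 of both groups 4 of the 20 were free of overlap, against 19.5% of the 149, a comparison chosen after seeing the data.

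TRNR bases 4 and 5 had their lowest group means in NME6 KO. Position 10408 read -0.267, 1.10, 1.19 and 1.499 points there, and position 10409 read -0.268, 1.16, 1.23 and 1.54 points. The differences from control were -0.709 points (SE 0.561, 95% interval -1.94 to 0.521; adjusted p = 0.768 by limma with Benjamini-Hochberg) and -0.698 points (SE 0.531, same adjusted p), and the groups overlapped through control replicate 1. Without that library they were -1.16 and -1.15 points, without knockout replicate 1 they were -0.3265 and -0.304 points, and without both -0.773 and -0.758 points. Between libraries of the same replicate number the knockout was the lower one in all 4 pairs at both positions. The labels do not state these pairs, and in replicates 2 to 4 every knockout library lay below every control library. With the replicate number as a block the adjusted p was 0.719 at both (limma, Benjamini-Hochberg). TRNK position 8316 was 0 in 3 knockout libraries and 0.294 points in replicate 3 (difference -0.987, SE 1.17; adjusted p = 0.872 by limma with Benjamini-Hochberg), a difference of -0.573 points without control replicate 2. TRND position 7523 read 9.52, 1.85, 1.095 and 1.64 points and TRNG position 10048 read 0, 1.94, 5.91 and 4.26 points, and both overlapped the control libraries.

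Of the tRNA means none passed in this comparison (0.0% of 37 genes) and none was free of overlap (0.0%). TRNI (4263 to 4331) had an unadjusted p under 0.05 (limma), the only 1 of the 37 genes. Its mean was 0.214, 0.1896, 0.204 and 0.171 points in control and 0.1003, -0.0227, 0.0328 and 0.266 points in the knockout. That difference was -0.101 points (SE 0.0469; adjusted p = 0.943 by limma with Benjamini-Hochberg). It was -0.0619 points without knockout replicate 2, -0.158 points without knockout replicate 4 (adjusted p = 0.00662) and turned to 0.0246 points when only positions other than 0 were averaged (adjusted p = 0.909).

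The first bases of TRNI held levels below 0 in all groups, at different bases. Base 3 (4265) read -1.75, -1.28, -1.75 and -1.75 points and base 4 (4266) read -1.76, -1.40, -1.76 and -1.76 points in NME6 KO, against 0 to 0.416 and 0 to 0.256 points in control. Base 8 (4270) was -0.935 and base 9 (4271) -0.976 points in all 4 knockout libraries. The control libraries were also below 0 at base 9, from -0.124 to -0.0485 points. The knockout libraries were spread out at base 5, from -2.62 to 0.0563 points, and at base 6, from -2.68 to 0.695 points, while the control libraries stood between 0.501 and 1.35 points at both. Rescue was below 0 there in all 3 libraries, with -0.362, -0.436 and -0.492 points at base 5 and -0.176, -0.284 and -0.376 points at base 6. RPUSD4 knockdown was below 0 in 2 of 3 libraries, with 0.557, -1.14 and -0.8175 points at base 5 and 0.724, -0.913 and -0.815 points at base 6. A higher untreated value and a lower CMC value cannot be told apart at these bases. None of them entered the main test, since their mean was under 1 point. With no level filter, bases 3, 4, 8 and 9 passed between NME6 KO and each of the other groups (limma, Benjamini-Hochberg). At bases 8 and 9 the knockout held 1 constant value. At bases 3 and 4 all knockout libraries but replicate 2 shared 1 value.

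**Figure D4:**
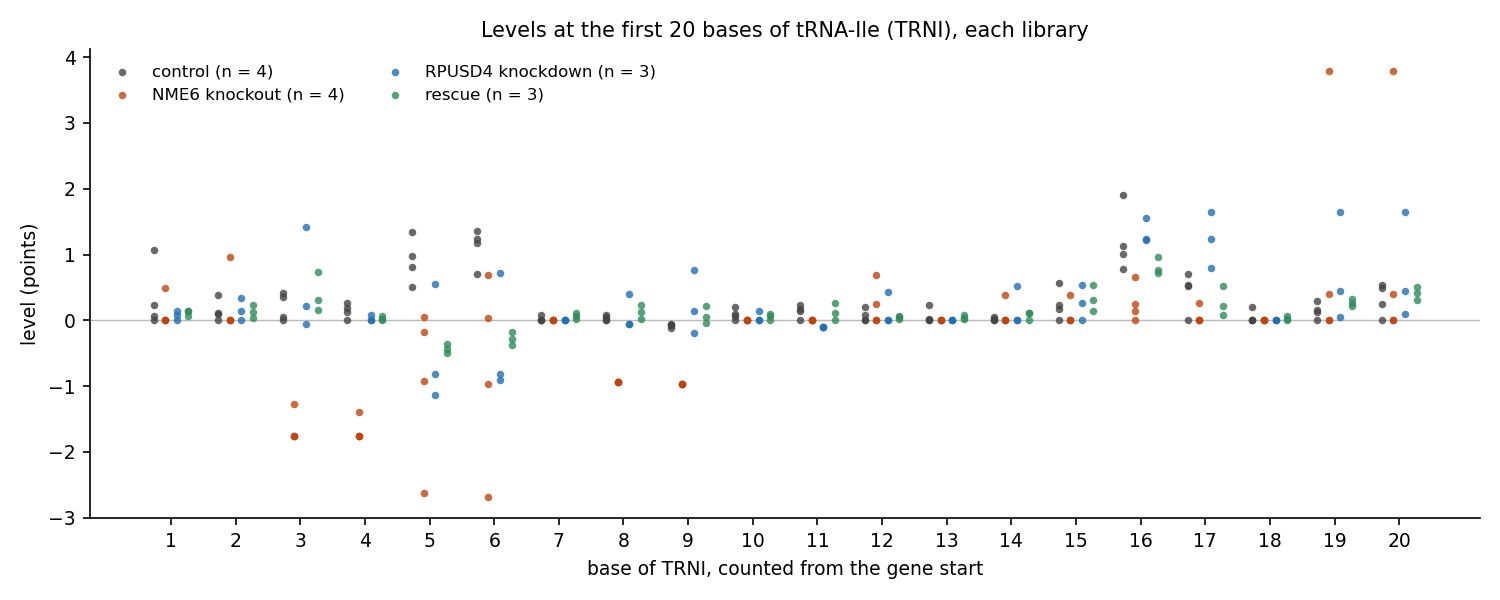
Levels (points, CMC minus untreated, y axis) at the first 20 bases of TRNI, counted from the gene start (x axis), with 1 point per library. The NME6 knockout libraries lie below 0 at bases 3, 4, 8 and 9, where several share 1 value, and at bases 5 and 6 the control libraries are above 0 while all 3 rescue libraries and 2 of 3 knockdown libraries are below 0.

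Identical values within a whole group occurred at 26 positions of 11 tRNAs, all below 0: 7 in NME6 KO, 12 in RPUSD4 knockdown, 7 in rescue and 0 in control. The lowest were TRNF position 598 (base 22) at -2.70 points in all rescue libraries and 0 in all others, and TRNK position 8364 (base 70, its last) at -2.11 points in all knockout libraries and between -0.376 and 0.342 elsewhere. When the level filter was dropped, 720 of the 881 positions could be tested, and 43 tests at 22 of them passed over the 5 comparisons (limma, Benjamini-Hochberg). By comparison, 3 of the 720 passed between RPUSD4 knockdown and control, against 0.241% of all 14928 positions tested, and 7 between NME6 KO and control, against 0.482%. For rescue it was 14 against NME6 KO (1.05% of all) and 9 against control (0.69% of all), and between NME6 KO and RPUSD4 knockdown it was 10 (0.509% of all). In 30 of the 43 a compared group had 1 constant value, and in 23 that value was below 0, so the spread within that group was 0.

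Rescue was compared with the NME6 KO cells it was made from. None of the 20 positions passed (limma, Benjamini-Hochberg, 3.36% of all 149). An unadjusted p under 0.05 (limma) was found at 0 of the 20, against 23 of the 149. Free of overlap was 1 of the 20, against 19.5% of the 149. That position was TRND 7523, with 0.825, 0.465 and 0.966 points in rescue, below the 4 knockout libraries (difference -2.77, SE 2.04; adjusted p = 0.610 by limma with Benjamini-Hochberg), and -0.775 points apart without knockout replicate 1. The median difference was -0.431 points over the 20 and -0.403 points over the 149. TRNR positions 10408 and 10409 read 0.933, 1.06 and 1.27 and 0.942, 1.08 and 1.26 points in rescue, within the range of the knockout libraries. TRNK position 8316 read 3.26, 0.224 and 3.92 points in rescue, overlapping the knockout (difference 2.39, SE 1.26; adjusted p = 0.390 by limma with Benjamini-Hochberg).

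No tRNA mean passed between rescue and knockout (limma, Benjamini-Hochberg, 0.0% of 37 genes). The means of TRNS2 and TRNV were free of overlap and lower in rescue, against 16.2% of the 37. TRNS2 had 0.155, 0.252, 0.170 and 0.221 points in the knockout and 0.0799, 0.109 and 0.0614 points in rescue, a difference of -0.116 points (SE 0.0386, 95% interval -0.199 to -0.0334; adjusted p = 0.289 by limma with Benjamini-Hochberg). Without replicate 1 of control and knockout the TRNS2 difference was -0.131 points (adjusted p = 0.00397). TRNV had 0.107, 0.192, 0.305 and 0.343 points in the knockout and 0.0977, 0.0996 and 0.0839 points in rescue (difference -0.143, SE 0.0823; adjusted p = 0.383 by limma with Benjamini-Hochberg). The knockout mean of TRNV carries the single high values given above.

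Against control, rescue gave 0 of 20 positions past the test (limma, Benjamini-Hochberg, 2.68% of all 149). An unadjusted p under 0.05 (limma) was found at 0 of the 20, against 14 of the 149. Free of overlap were 2 of the 20, both lower, against 15.4% of the 149. They were TRND 7523 (difference -2.52, SE 2.04; adjusted p = 0.793 by limma with Benjamini-Hochberg) and TRNV 1665. The latter was singled out after its values were seen: it had 0.741, 0.739, 0.614 and 0.192 points in control and -0.109, 0.0244 and 0.0620 points in rescue. The TRND difference was -0.981 points without control replicate 1. Among tRNA means 2 were higher and 11 lower in rescue, and over all 37 genes 5 were higher and 32 lower. None passed (0.0%), and 1 of the 13, TRND, was free of overlap, against 10.8% of the 37. TRND had 0.232, 0.179, 0.205 and 0.189 points in control and 0.0853, 0.147 and 0.125 points in rescue (difference -0.0821, SE 0.0606; adjusted p = 0.602 by limma with Benjamini-Hochberg). The means of TRNG and TRNS2 overlapped between rescue and control. Both had an unadjusted p under 0.05 (limma), which was found for 4 of all 37 genes. TRNG had 0.0896, 0.213 and 0.209 points in rescue, which is -0.191 points from control (SE 0.0868; adjusted p = 0.440 by limma with Benjamini-Hochberg). TRNS2 had 0.0694, 0.167, 0.243 and 0.188 points in control, a difference of -0.0836 points (SE 0.0386; adjusted p = 0.440 by limma with Benjamini-Hochberg). With library weights they were -0.153 and -0.1105 points and passed (adjusted p = 0.0394 and 0.00136), and without replicate 1 of control and knockout TRNS2 passed too (-0.116 points, adjusted p = 0.00564).

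NME6 KO and RPUSD4 knockdown were compared directly, and this comparison held the only tRNA positions past the test. Of the 20 positions 2 passed, TRNR 10408 and 10409, against 3.36% of all 149, and both were lower in NME6 KO. At position 10408 the 4 knockout libraries, at most 1.499 points, lay below the 3 knockdown libraries, at least 2.855 points. The difference was -2.53 points (95% interval -3.86 to -1.20, SE 0.606; adjusted p = 0.0471 by limma with Benjamini-Hochberg), and at position 10409 it was -2.39 points (SE 0.574, 95% interval -3.65 to -1.13; adjusted p = 0.0471 by limma with Benjamini-Hochberg). The 2 positions are neighbours with nearly the same value in every library, so they count as 1 observation rather than 2. In control the same positions lay between the other groups, at 1.59 ± 0.894 and 1.61 ± 0.908 points (SD, n = 4), and in rescue at 1.09 ± 0.170 and 1.09 ± 0.160 points (n = 3).

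The TRNR call was close to the threshold. It was lost at both positions when any single library other than control replicate 1 was left out (adjusted p from 0.0502 to 0.176), while the differences stayed between -2.81 and -2.06 points at 10408 and between -2.60 and -1.997 points at 10409. Without replicate 1 of control and knockout together the adjusted p was 0.0113 and 0.00443, and the differences were -2.15 and -1.997 points. It was lost as well with a level filter of 0.5 points (adjusted p = 0.159), in a fit of the 2 groups alone (0.199 and 0.198), on a signed log2 scale (0.0841 and 0.0852), with scaled libraries (0.0758) and with no level filter (0.816 and 0.824). Base 18 of TRNR (10422) read 0.101, 1.57, 1.70 and 0.90 points in the knockout and 2.125, 1.999 and 0.558 points in the knockdown, which overlap (difference -0.494, SE 0.611; adjusted p = 0.725 by limma with Benjamini-Hochberg, and from -0.995 to -0.171 points with 1 library left out). Bases 55 and 56, which were not tested, had means of 1.08 and 1.11 points in the knockout and 0.759 and 0.732 points in the knockdown, the opposite order.

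**Figure D5:**
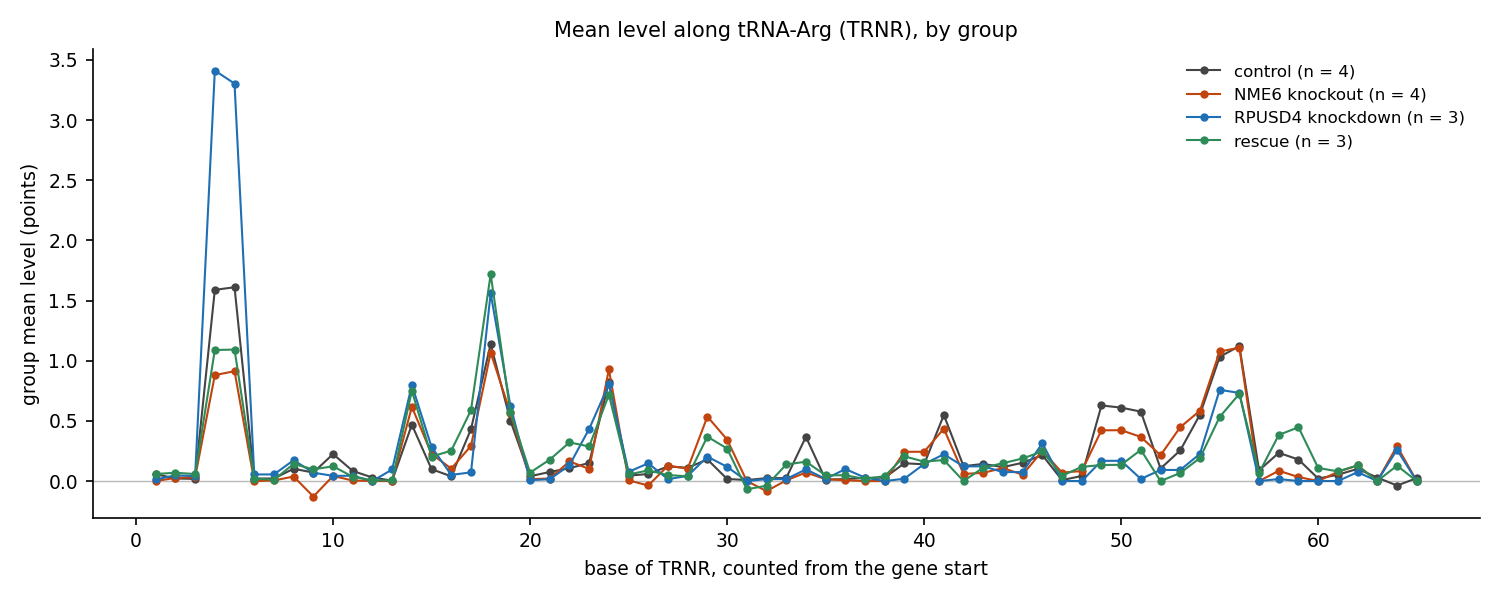
Mean level of each group (points, CMC minus untreated, y axis) along the 65 bases of TRNR (x axis, counted from the gene start), as 1 line per group (n = 4, 4, 3 and 3 libraries). The groups separate at bases 4 and 5, with RPUSD4 knockdown highest at 3.41 and 3.30 points and NME6 knockout lowest at 0.880 and 0.913 points, and lie close together at most other bases.

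In this comparison an unadjusted p under 0.05 (limma) was found at 14 of the 149 positions and at 4 of the 20. TRNW 5525 was among them, and its p is no support, since the knockdown carried it past the level filter. Free of overlap were 3, all lower in NME6 KO, against 9.4% of the 149. Besides the TRNR pair this was TRNK 8316, at most 0.294 points in the knockout and at least 3.06 points in the knockdown. Its difference of -4.78 points (SE 1.26, 95% interval -7.55 to -2.01) did not pass (adjusted p = 0.0585 by limma with Benjamini-Hochberg). On a signed log2 scale it passed (adjusted p = 0.0214), and over all alternatives its adjusted p ran from 0.0214 to 0.807. Without knockdown replicate 3 the difference was -3.07 points. TRNW 5525 was at -0.168 points in 3 knockout libraries and 1.785 points in replicate 1, overlapping the knockdown, and no difference is given for the reason stated above.

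No tRNA mean passed the test between NME6 KO and RPUSD4 knockdown (limma, Benjamini-Hochberg, 0.0% of 37 genes). The mean of TRNK was free of overlap, against 5.41% of the 37, with 0.0303, 0.124, 0.104 and 0.145 points in the knockout and 0.188, 0.188 and 0.177 points in the knockdown (difference -0.0836, SE 0.0444; adjusted p = 0.493 by limma with Benjamini-Hochberg). TRNM and TRNW had unadjusted p under 0.05 (limma) in opposite directions. Such a p was found for 3 of the 37 genes. The TRNM mean was 0.187 ± 0.119 points in the knockout (SD, n = 4) and 0.0577 ± 0.0278 in the knockdown (n = 3), a difference of 0.130 points (SE 0.0534; adjusted p = 0.386 by limma with Benjamini-Hochberg), and 0.0776 points without knockout replicate 4. The TRNW mean was 0.0653 ± 0.0919 points in the knockout and 0.175 ± 0.0116 in the knockdown (adjusted p = 0.386 by limma with Benjamini-Hochberg). Without knockout replicate 2 the TRNW difference went from -0.109 to -0.151 points and passed (adjusted p = 0.00579).

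Comparisons that share a group share its libraries, so the values above are not separate evidence. In TRNR base 4, for example, RPUSD4 knockdown minus control gave 1.82 points, NME6 KO minus control -0.709 points and NME6 KO minus RPUSD4 knockdown -2.53 points, from the same 11 libraries.

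The highest positions of 4 tRNAs have not been given yet, and their SDs were as large as most gaps between group means. TRNL2 had its highest position at base 41 (12306), with group means of 1.33 ± 0.605 points in control, 1.38 ± 1.77 in NME6 KO, 0.307 ± 0.707 in RPUSD4 knockdown and 0.874 ± 0.259 in rescue. TRNS2 position 12210 (base 4) had 0.789 ± 0.546, 1.32 ± 0.377, 1.18 ± 1.23 and 0.423 ± 0.286 points in the same order. Its rescue libraries, between 0.111 and 0.672 points, lay below its knockout libraries, between 0.872 and 1.77 points. TRNT position 15940 (base 53) had 0.536 ± 0.630, 0.665 ± 1.16, -0.171 ± 0 and 1.06 ± 0.435 points, and TRNI position 4300 (base 38) 1.26 ± 0.886, 1.45 ± 2.90, 0.396 ± 0.406 and 0.143 ± 0.404 points. These positions of TRNS2, TRNT and TRNI had a mean under 1 point and were not tested. Base 9 is a site of base methylation in many mitochondrial tRNAs. By the unchecked numbering used here, it reached 1 point on average in 0 of 13 tRNAs. Its median was 0.0266 points, against 0.0525 points over all 881 positions.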

How the data were processed

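CMC libraries were made with a stranded total RNA kit from RNA of fractionated mitochondria, per the labels' protocols. Per the submitters' processing notes, the tools were SAMtools, STAR and Trimmomatic (no versions) and the builds hg38 and GRCh38. For the calling of altered reads, the method was not given in the sources used here. As values, the authors deposited a signed score per position (CMC minus untreated, per the file headers a difference), for positions 2 to 16571, with no read depth. Of the untreated samples (6), no separate profile was used here.

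Genes were placed with RefSeq coordinates of GRCh38, and the listed positions were taken to use the same numbering, which was not checked. Positions whose mean over the 14 libraries was at least 1 (149, of which 20 lie in the 13 tRNAs) and the means of 37 genes entered a limma 3.58.1 fit under R 4.3.3 (all libraries in one fit, variance trend, two-sided, Benjamini-Hochberg, threshold 0.05). This step was tested on simulated data with independent normal noise. Those data lacked the many zeros, single high values, close neighbours and shared untreated profile seen here, so the fit was not tested under such conditions. Tables were made with Python 3.11.15, numpy 2.4.6 and pandas 2.3.3, and figures with matplotlib 3.10.9.

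The members and lists were chosen with earlier results of these data known. Named by rule were the positions taken for the reported RPUSD4 targets, the highest of each tRNA, the 10 highest, and all called positions (19 in all). A few others are given as examples, and for their values.

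Replicate numbers were checked as pairs. For NME6 KO and control, deviations from the group means correlated at 0.471, 0.286, 0.193 and 0.116 between libraries of the same number, so the number was tried as a block. Among replicates 2 to 4, libraries of different number correlated too, from 0.0911 to 0.246. NME6 KO replicate 4 correlated at 0.121 with control replicate 2, above the 0.116 with its own number. The numbers therefore do not settle the pairs among replicates 2 to 4. The labels themselves do not state such a pairing. Other level filters, scales, weights, a replicate block and left-out libraries were tried as alternatives.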

Additional observations from a re-analysis of the deposited data

Results flagged for a closer look

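Within the groups of 4 libraries, 64 sets of values (the named positions and the tRNA means) were searched for a library far from the other 3. One library stood apart in 16 of the 64. For continuous, separate values chance alone gives about 1 in 20, a rate that cannot be set against this count: in 8 of the 16 the other 3 libraries shared 1 value, where any other value stands apart, and neighbouring positions of a library entered separately. Of these 16, 11 were replicate 1 of control or NME6 KO, the libraries with the most zeros.

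Control replicate 1 was the highest control library at TRNF 588 with 33.3 points and at TRND 7522 and 7523 with 7.89 points each. It was the lowest at TRNR 10408 and 10409 with 0.249 points each. The same library had the highest control mean of TRNF, 0.469 points, and the lowest control means of TRNR, 0.108 points, and TRNH, 0.0958 points. NME6 KO replicate 1 was the highest knockout library at TRND 7523 with 9.52 points, at TRNM 4447 with 8.33 points and at TRNW 5525 with 1.78 points.

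In the other libraries, control replicate 2 stood apart at TRNV 1617 with 0.638 points, where the other control libraries were 0. NME6 KO replicate 3 was the highest knockout library at TRNK 8315 with 2.64 points, at TRNK 8316 with 0.294 points and at TRNT 15940 with 2.40 points. NME6 KO replicate 4 was the highest at TRNI 4300 with 5.80 points, where the other 3 read 0. The part of read depth in these values was not tested.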

How the results depend on the processing

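Limits: read depth is unknown, 68.2% of the values are exactly 0, and a position in 1 high library can pass the level filter. With values under 0.01 also taken as 0 that share was 68.25%. Each comparison below is given in the order RPUSD4 knockdown minus control, NME6 KO minus control, rescue minus NME6 KO, rescue minus control, NME6 KO minus RPUSD4 knockdown.

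Called tRNA positions, 0, 0, 0, 0 and 2 as reported, became 3, 7, 14, 9 and 10 of 720 with no level filter (0.241%, 0.482%, 1.05%, 0.69% and 0.509% of all positions). Library weights gave 2 for NME6 KO minus control and for both rescue comparisons. For NME6 KO minus RPUSD4 knockdown the count was 0 with a filter of 0.5, with scaled libraries and when the other groups were left out of the fit. It was 1 (TRNK 8316) on the signed log2 scale, and 0 to 2 with 1 library left out. A filter of 2 also gave 0, but TRNR 10408 and 10409, with means of 1.67 and 1.66 points, were not tested there. Called tRNA means, 0 in all 5, became 1 in each comparison but the last when only positions other than 0 were averaged. For rescue minus NME6 KO and rescue minus control, library weights gave 1 and 5, and leaving out replicate 1 of control and NME6 KO together gave 1 and 3. Scaled libraries, an alternative chosen after seeing the data, gave 1 for rescue minus NME6 KO. With 1 library left out these counts ranged from 0 to 1 (TRNG without NME6 KO replicate 1, TRNI without replicate 4, TRNW without replicate 2 among them). Apart from the fit with no level filter, no share over all positions or genes is given for these called counts. They are therefore not read as a result about the 13 tRNAs. Positions free of overlap, 5, 0, 1, 2 and 3, became 5, 4, 2, 4 and 5 without replicate 1 of both groups (14.1%, 19.5%, 38.9%, 37.6% and 16.8% of all 149). Without RPUSD4 knockdown replicate 3 they were 6 in the first (12.75% of all) and 5 in the last (16.1% of all). Both alternatives were chosen after seeing the data. The cause of these changes was not tested.

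With the replicate block the TRNR differences between NME6 KO and RPUSD4 knockdown were -2.71 and -2.57 points (adjusted p = 0.033 by limma with Benjamini-Hochberg at both), and no count of called positions or means changed in any of the 5 comparisons. Of the 25 differences given with an SE or adjusted p in the report, 530 values under alternatives kept direction and side of the threshold, 36 fell below it (all TRNR), 12 passed it and 1 turned: the TRNI mean, NME6 KO minus control, to 0.0246 points (adjusted p = 0.909).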
